A study of Mus musculus with 6 samples.

Results

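Collagen genes were examined as a family in 6 RNA-seq libraries of mouse cells, 3 from embryonic stem cells (ESCs) and 3 from epiblast-like cells (EpiLCs). The members were chosen by name, as every gene whose symbol has the form of a collagen alpha chain (Col, a number, a, a number), which gave 44 of the 24736 genes in the deposited table. The family was proposed after values of some members in the comparison of EpiLCs with ESCs had been seen, so levels and fold changes of collagen genes are given here as a description, without p-values. Both groups came from the wild-type XY HM1 TetON line, a single male ESC line that serves as the parental line for inducible SOX2 cells. ESCs were collected at 0 h, undifferentiated, after culture on feeders, mouse embryonic fibroblasts that no longer divide, in knockout DMEM with 10% serum and 1000 U/ml LIF. EpiLCs, the in vitro counterpart of the post-implantation epiblast, were the same line after 48 h in serum-free N2/B27 medium to which 10 ng/ml bFGF had been added along with LGK974, an inhibitor of WNT secretion, at 5 µM. According to the study's methods, cells were separated from feeders by adhesion before differentiation and were then grown on gelatin. Whether the 0 h RNA was taken after such a separation is not stated in the sources used here.

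Collagens are secreted or membrane-anchored proteins whose alpha chains wind around each other in a helix built on a repeat with glycine. Fibrillar collagens build the load-bearing fibrils of connective tissue and are made in quantity by fibroblasts. Basement membrane collagens form the sheet-like matrix under epithelia, which the early embryo lays down around the epiblast, and other classes decorate fibrils, form beaded filaments or stay anchored in the plasma membrane. Because each molecule needs several chains, genes of partner chains are often transcribed together, and the genes of Col4a1 and Col4a2 are arranged head to head.

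That arrangement was visible in the promoter windows of RefSeq, which span 250 bases before and 50 after each annotated start on GRCm38.p6. The start of Col4a1 (chromosome 8, minus strand, position 11312826) and that of Col4a2 (plus strand, position 11312805) lie 21 bases apart, and the windows of the pair share 78 bases. A stretch before the start of Col4a2 is printed with the bases before the starts of Col1a2, a fibrillar chain that fell, and Col9a2, a chain that rose. Capitals mark matches, on either strand, to CCAAT (the CCAAT box) or GGGCGG (the GC box). No letter belongs to both motifs in these sequences, and all are written along the plus strand.

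Col4a2, chr8:11312757-11312786, plus strand: CCGCCCgaggagctccCCAATttgttggcg
Col1a2, chr6:4505368-4505617, plus strand: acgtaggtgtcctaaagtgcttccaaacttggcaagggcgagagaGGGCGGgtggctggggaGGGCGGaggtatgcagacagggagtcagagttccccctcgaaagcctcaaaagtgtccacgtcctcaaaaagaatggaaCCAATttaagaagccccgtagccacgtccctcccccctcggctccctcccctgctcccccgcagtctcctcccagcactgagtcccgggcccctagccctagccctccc
Col9a2, chr4:121039316-121039565, plus strand: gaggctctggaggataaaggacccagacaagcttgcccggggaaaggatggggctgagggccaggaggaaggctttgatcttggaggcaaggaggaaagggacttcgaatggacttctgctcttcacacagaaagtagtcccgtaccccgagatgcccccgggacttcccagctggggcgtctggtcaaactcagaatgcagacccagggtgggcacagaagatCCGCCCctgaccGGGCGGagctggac

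A window was given for 35 of the 44 collagen genes, in 38 windows of 32851 in the table. The GC box occurred in 23 of the 38 collagen windows (60.5%) and in 35.7% of all windows. The CCAAT box occurred in 34.2% of the collagen windows and in 37.4% of all, and TATAAA (the TATA box, also searched on both strands) in 13.2% against 13.6%. The Col1a2 stretch holds 2 GC boxes and 1 CCAAT box, and the Col9a2 stretch 2 GC boxes, so a chain that fell and one that rose both carry the GC box. These matches are matches of letters and do not show a bound site.

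The summed level of collagen transcripts was lower in EpiLCs, and the fibrillar class had the largest difference in summed level. That of basement membrane collagens overlapped between the groups. By median log2 fold change (EpiLC minus ESC), the fibrillar class was at -1.77, nearer to 0 than every class except basement membrane (-0.68). Summed over the 44 genes, the level was 549, 1861 and 306 TPM (transcript counts scaled by the authors to transcript length and to a fixed library total) in ESC replicates 1, 2 and 3. It was 239, 279 and 219 TPM in EpiLC replicates 1, 2 and 3. The lowest ESC library was therefore above the highest EpiLC library, but ESC replicate 2 held more than the other ESC libraries together. Fibrillar collagens made up 50.1%, 69.6% and 32.3% of the collagen TPM in the ESC libraries and 16.7%, 23.7% and 12.9% in the EpiLC libraries. Basement membrane collagens made up 33.0%, 15.0% and 53.8% in ESCs and 75.1%, 65.9% and 79.4% in EpiLCs. In TPM rather than shares, the basement membrane sums overlapped (181, 280 and 164 in ESCs, 180, 184 and 174 in EpiLCs), whereas the fibrillar sum was 275, 1294 and 98.8 in ESCs and 40.0, 66.1 and 28.2 in EpiLCs. In bulk RNA of this kind, fewer cells of a type and less RNA per cell cannot be told apart.

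**Figure D1:**
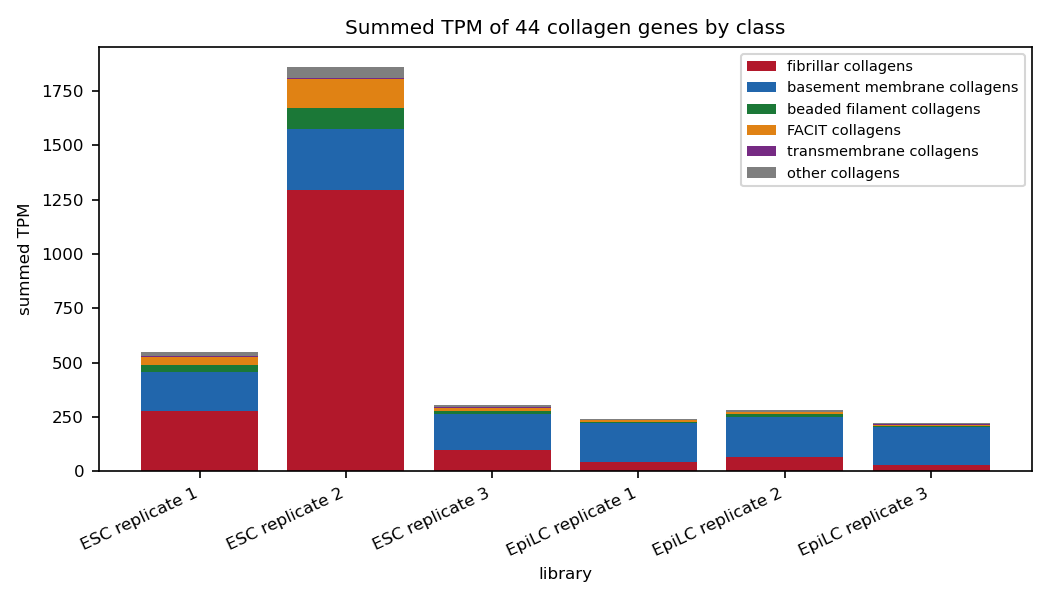
Summed TPM of the 44 collagen genes in each of the 6 libraries, with the bar of each library divided by collagen class. Basement membrane collagens (blue) take a band of 164 to 280 TPM in every library, while the fibrillar band (red) runs from 28.2 TPM in EpiLC replicate 3 to 1294 TPM in ESC replicate 2.

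Of the 44 genes, 38 had enough reads to enter the fit of edgeR's quasi-likelihood model, which covered 14468 genes in all. The other 6 (Col4a3, Col4a4, Col6a6, Col9a1, Col10a1 and Col19a1) were at or below 0.65 TPM in every library. With the adjusted p-value held to 0.05 over these genes, 18 collagen genes were lower in EpiLCs, 2 were higher and 18 were not called. Among all genes tested, 22.8% were called lower and 22.6% higher by the same threshold, and nothing is read from the comparison of these shares, since values of this contrast led to the choice of the family. The log2 fold changes of the members, taken as EpiLC minus ESC on the count scale of the fit, ran from -6.48 (Col12a1) to 1.43 (Col9a2), with a median of -1.86 over the 38 tested against -0.00 over all genes tested. In 17 of the 38, every EpiLC library was below every ESC library in TPM, and in 4 every EpiLC library was above. Over all genes tested, 25.6% were separated in the first way and 33.8% in the second.

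**Figure D2:**
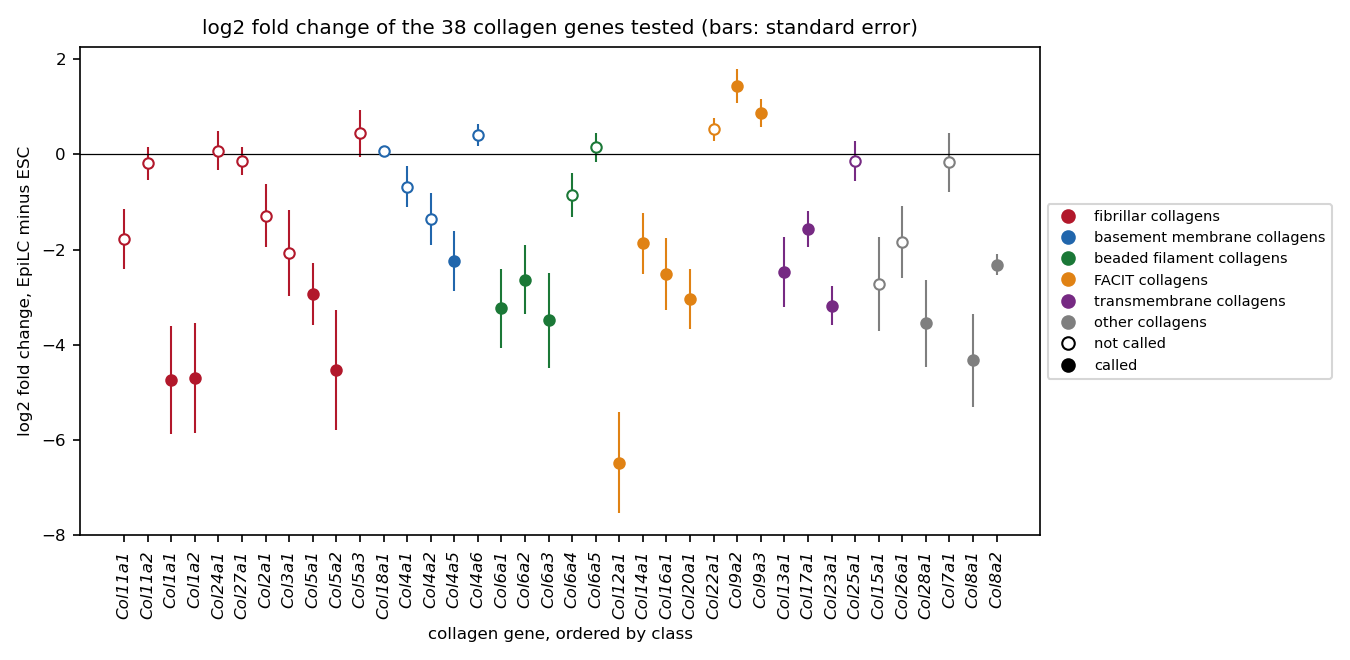
Log2 fold change (EpiLC minus ESC) of the 38 collagen genes tested, by class, with bars for the standard error; filled points were called and open points were not. The points run from -6.48 for Col12a1 to 1.43 for Col9a2, and 30 of the 38 lie below 0.

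The identity of the cultures was checked first. Of 10 marker genes of pluripotent cells, Nanog, Esrrb, Zfp42 and Sox2 were lower in EpiLCs. Fgf5, Pou3f1, Otx2, Sox3 and Dnmt3b were higher, and Pou5f1 was not called. The paper describes these directions for Nanog, Fgf5 and Pou5f1 on the way to EpiLC identity. It also describes EpiLCs as high in SOX2, whereas Sox2 transcripts fell here (log2 fold change -1.15). Total expected counts ranged from 16967741 (ESC replicate 2) to 35096210 (EpiLC replicate 1), so that 3 counts corresponded to between 0.0855 and 0.177 CPM (counts scaled to the library total), a limit that covers counting error only. Of 20 markers of fibroblasts other than collagens, 17 could be tested. Their summed level was 614, 2163 and 264 TPM in ESC replicates 1, 2 and 3 and between 214 and 270 TPM in EpiLCs, a range that includes ESC replicate 3. Of the 17, 8 were lower in EpiLCs and 0 were higher (edgeR, against 22.8% and 22.6% of all genes), and 15 were ordered as replicate 2, then 1, then 3 among the ESCs. Their median log2 fold change was -2.18, or -0.78 without ESC replicate 2. S100a4, Cdh11, Pdgfra, Prrx1 and Pdgfrb fell without overlap between the groups, with log2 fold changes of -4.22, -4.08, -3.91, -3.83 and -2.92, whereas Thy1, Twist1, Mmp2 and Dcn, at 0.05, -0.08, -0.22 and -0.14, were not called. Pdgfra did not share the order 2, 1, 3, at 16.8, 6.76 and 7.09 TPM in ESC replicates 1, 2 and 3. The fibroblast markers Lum and Fap were at most 0.18 TPM in every library. The list includes Lox, Dcn, Lum, Fap, Mmp2 and Loxl1, which also act on collagen and appear among its partners below. Markers of primitive and parietal endoderm, which secrete basement membrane, summed to 82.5, 90.4 and 54.1 TPM in ESCs and to between 41.8 and 51.4 TPM in EpiLCs. Of 14 tested of 16, 8 were lower and 2 higher, against 22.8% and 22.6% of all genes. The lineage factors Gata6, Gata4, Sox17 and Foxa2 were among the lower ones, with log2 fold changes of -4.63, -3.20, -2.68 and -2.31 (adjusted p = 0.000214, 0.000246, 0.00220 and 0.0108 by edgeR). The endocytic receptor Lrp2 rose, from 5.53, 7.63 and 9.79 TPM to 24.5, 27.5 and 23.6 TPM, and so made up much of the EpiLC sum. Amn was the other one called higher (log2 fold change 1.43). Sox7, Dab2, Plat and Thbd were not called, at -1.09, -0.26, -0.50 and -2.23. Ttr and Afp were at most 0.05 TPM in every library. The part of fibroblasts or endoderm cells in the collagen values was not tested.

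Fibrillar collagens had the highest summed level of the classes in ESC replicates 1 and 2, but not in ESC replicate 3. All 11 genes were tested, 4 were called lower and 0 higher, and the median log2 fold change was -1.77, or -0.42 without ESC replicate 2. Col1a1 (chromosome 11, 94936224 to 94953042 on mm10), one of the chains of type I collagen, the main protein of bone, skin and tendon, was at 90.5, 489 and 28.3 TPM in ESC replicates 1 to 3 and at 6.63, 13.9 and 3.08 TPM in EpiLC replicates 1 to 3. The groups did not overlap, although the lowest ESC and the highest EpiLC library were close beside a span of over an order of magnitude among the ESCs, and the log2 fold change was -4.74 (standard error 1.14). Its partner chain Col1a2 was at 88.8, 412 and 30.6 TPM in ESCs and at 4.24, 14.8 and 2.23 TPM in EpiLCs, a log2 fold change of -4.70 (standard error 1.15). Without ESC replicate 2 the values were -2.97 for Col1a1 and -3.13 for Col1a2. Both type I chains fell, by nearly the same amount and with the same order of libraries in both groups. Their ratio in TPM, Col1a1 over Col1a2, was 1.02, 1.19 and 0.925 in ESCs and 1.56, 0.942 and 1.38 in EpiLCs, so it moved by at most 1.69-fold over libraries in which each chain moved by more than 100-fold.

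Type V collagen is incorporated into type I fibrils and sets their diameter. Its chain Col5a1 was at 53.6, 149 and 22.1 TPM in ESCs and at 10.8, 12.1 and 7.56 TPM in EpiLCs, with no overlap and a log2 fold change of -2.93 (standard error 0.65). Col5a2 was at 15.7, 144 and 5.68 TPM in ESCs and at 2.17, 4.14 and 1.06 TPM in EpiLCs, a log2 fold change of -4.53 (standard error 1.26). Without ESC replicate 2 the values were -1.95 for Col5a1 and -2.17 for Col5a2, and Col5a2 was not called when any 1 of the EpiLC libraries was left out (-4.44, -5.11 and -4.17 without replicates 1, 2 and 3). Col5a1 and Col5a2 fell without overlap between the groups, but they did not keep one ratio. Col5a1 over Col5a2 was 3.42, 1.04 and 3.89 in ESCs and 4.95, 2.93 and 7.13 in EpiLCs, lowest in replicate 2 of each group.

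The other abundant fibrillar genes overlapped between the groups. Col3a1, the single chain of type III collagen, which forms fine fibrils beside type I in soft tissue, was at 11.1, 55.5 and 3.82 TPM in ESCs and at 6.24, 7.81 and 3.18 TPM in EpiLCs. Its log2 fold change of -2.07 (standard error 0.90) was not called, and it became -0.42 without ESC replicate 2. The ratio of Col1a1 to Col3a1 in TPM was 8.19, 8.82 and 7.42 in ESCs and 1.06, 1.78 and 0.969 in EpiLCs. Within ESCs this ratio varied little, although both genes varied more than 10-fold between the same libraries. Col2a1, the collagen of cartilage, which is also transcribed in early embryos, was at 9.56, 31.3 and 4.06 TPM in ESCs and at 5.43, 7.01 and 6.42 TPM in EpiLCs. Its log2 fold change was -1.29 (standard error 0.66), or -0.15 without ESC replicate 2, and was not called in either fit. Without ESC replicate 3, both Col2a1 and Col3a1 were called lower. The remaining 5 genes stayed below 10 TPM in every library. Among them Col11a1, a partner of cartilage fibrils, was at 2.25, 9.12 and 1.76 TPM in ESCs and lower, at 0.97 to 1.62 TPM, in all EpiLC libraries, with a log2 fold change of -1.77 (standard error 0.63) that was not called. Col5a3, Col11a2, Col24a1 and Col27a1 overlapped between the groups, with log2 fold changes from -0.19 to 0.44.

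**Figure D3:**
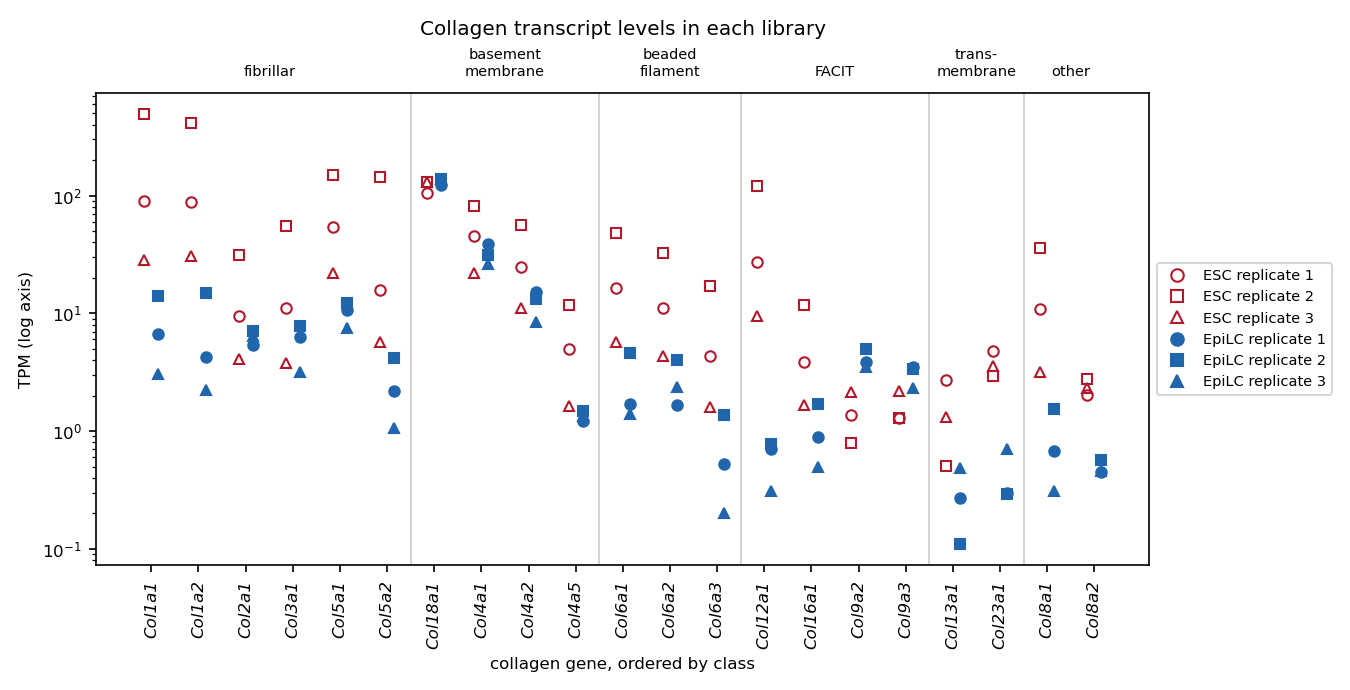
TPM (log axis) of the 21 collagen genes described library by library, ordered by class; open red symbols are ESC libraries, filled blue symbols are EpiLC libraries, and circles, squares and triangles are replicates 1, 2 and 3. The ESC libraries of most genes span the order square, circle, triangle, as for Col1a1 at 489, 90.5 and 28.3 TPM, whereas the libraries of Col18a1 lie together between 105 and 138 TPM.

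Basement membrane collagens had the median fold change nearest to 0 among the classes, although Col4a2 and Col4a5 differed 5.04-fold and 7.28-fold in TPM between ESC replicates 2 and 3. Of 7 genes, 5 were tested, 1 was called lower and 0 higher, with a median log2 fold change of -0.68, or -0.12 without ESC replicate 2. Col18a1 (chromosome 10, 77052178 to 77166530), which carries heparan sulphate chains and releases endostatin from its end, was at 105, 130 and 130 TPM in ESCs and at 124, 137 and 138 TPM in EpiLCs. The groups overlapped and the log2 fold change was 0.07 (standard error 0.10), the smallest standard error among the members described by library. Col18a1 alone made up 19.2%, 6.99% and 42.4% of the collagen TPM in the ESC libraries and 51.8%, 49.3% and 62.8% in the EpiLC libraries. It was the most abundant collagen transcript in ESC replicates 1 and 3 and in all 3 EpiLC libraries. In ESC replicate 2, by contrast, Col1a1, Col1a2, Col5a1 and Col5a2 exceeded it.

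Col4a1 and Col4a2, the chains of the network found in nearly all basement membranes, are the pair whose starts were described above. Col4a1 was at 45.7, 81.7 and 21.8 TPM in ESCs and at 38.9, 31.2 and 26.2 TPM in EpiLCs, a log2 fold change of -0.68 (standard error 0.43). Col4a2 was at 24.7, 56.0 and 11.1 TPM in ESCs and at 15.2, 13.3 and 8.46 TPM in EpiLCs, a log2 fold change of -1.36 (standard error 0.54). Neither chain was called with all libraries, but Col4a2 was called lower in the fit with a replicate block (log2 fold change -1.11), and both were called lower without ESC replicate 3 (-1.03 for Col4a1 and -1.75 for Col4a2). Without ESC replicate 2, neither was called, at -0.12 for Col4a1 and -0.59 for Col4a2. For both chains the EpiLC values lay inside the range of the ESC libraries or just under it. The ratio of Col4a1 to Col4a2 was 1.85, 1.46 and 1.96 in ESCs and 2.56, 2.35 and 3.09 in EpiLCs, so every EpiLC library had the higher ratio. The values come from the contrast that led to the choice of the family and the ratio was not tested.

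Of the rarer type IV chains, Col4a5, encoded on the X chromosome and used in the kidney and other specialised basement membranes, was the one called lower. It was at 5.01, 11.9 and 1.63 TPM in ESCs and at 1.22, 1.49 and 1.33 TPM in EpiLCs, a log2 fold change of -2.24 (standard error 0.64), or -1.35 without ESC replicate 2. Col4a5 was not called without EpiLC replicate 1, 2 or 3 (-2.18, -2.31 and -2.23). Nor was it called by limma on log2(TPM + 1) or log2(TPM + 0.1), at -1.33 and -1.71. The gap between ESC replicate 3 and the highest EpiLC library was narrow, while ESC replicates 1 and 2 stood clear of it. Col4a6, the neighbour of Col4a5, was at 0.30 to 0.33 TPM in ESCs and at 0.38 to 0.48 TPM in EpiLCs, and its log2 fold change of 0.40 (standard error 0.23) was not called. Col4a3 and Col4a4, the other chains of the mature kidney network, were at most 0.06 TPM in every library and were not tested.

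Type VI collagen forms beaded filaments near cells, and its 3 widely used chains moved together. Of 6 genes, 5 were tested and 3 were called lower, with a median log2 fold change of -2.63, or -1.58 without ESC replicate 2. Col6a1 was at 16.3, 47.8 and 5.67 TPM in ESCs and at 1.71, 4.57 and 1.39 TPM in EpiLCs, a log2 fold change of -3.23 (standard error 0.83). Col6a2 was at 11.2, 32.6 and 4.36 TPM in ESCs and at 1.68, 4.01 and 2.36 TPM in EpiLCs (log2 fold change -2.63, standard error 0.72). Col6a3, whose long chain completes the molecule, was at 4.37, 16.9 and 1.61 TPM in ESCs and at 0.53, 1.37 and 0.20 TPM in EpiLCs (log2 fold change -3.49, standard error 1.00). Without ESC replicate 2 the values were -2.15, -1.58 and -2.16 for Col6a1, Col6a2 and Col6a3. Each of the chains fell without overlap between the groups, with ESC replicate 2 highest and ESC replicate 3 lowest. Col6a1 over Col6a2 was 1.46, 1.47 and 1.30 in ESCs and 1.02, 1.14 and 0.589 in EpiLCs. The later-described chains Col6a4, Col6a5 and Col6a6 were at most 0.54 TPM in every library, and none was called.

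FACIT collagens, which sit on the surface of fibrils and have interrupted helices, held both the most negative log2 fold change of the family and the 2 genes called higher. Of 9 genes, 7 were tested, of which 4 were called lower and 2 higher, with a median log2 fold change of -1.87. Col12a1 (chromosome 9), which links type I fibrils to their surroundings, was at 27.0, 119 and 9.41 TPM in ESCs and at 0.71, 0.77 and 0.31 TPM in EpiLCs. Its lowest ESC library was more than 10 times its highest EpiLC library, and the log2 fold change was -6.48 (standard error 1.06), or -4.97 without ESC replicate 2. Col16a1 was at 3.84, 11.8 and 1.68 TPM in ESCs and at 0.89, 1.71 and 0.50 TPM in EpiLCs (log2 fold change -2.51, standard error 0.76). It was called lower although EpiLC replicate 2 and ESC replicate 3 overlapped, and its value without ESC replicate 2, -1.46, was not called.

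Type IX collagen coats the fibrils of cartilage and the vitreous, and 2 of its chains were the members called higher. Col9a2 was at 1.38, 0.79 and 2.15 TPM in ESCs and at 3.87, 4.96 and 3.48 TPM in EpiLCs, a log2 fold change of 1.43 (standard error 0.36). Col9a3 was at 1.29, 1.29 and 2.17 TPM in ESCs and at 3.48, 3.35 and 2.30 TPM in EpiLCs, a log2 fold change of 0.87 (standard error 0.30). All EpiLC libraries lay above all ESC libraries for both, by a wide margin for Col9a2 and barely for Col9a3, and here ESC replicate 3 was the highest of the ESCs. Col9a1, the remaining chain, was at most 0.13 TPM in every library and was not tested. With the replicate number as a block 1 of the 2 remained, as Col9a3 was not called, and 0 remained without ESC replicate 1, EpiLC replicate 1 or EpiLC replicate 2. Those fits called 20.6% of all genes higher with the block and 18.0%, 14.5% and 15.8% without these libraries, and the log2 fold change of Col9a2 without them was 1.37, 1.48 and 1.29. That of Col9a3 was 0.89 with the block and 0.72, 0.77 and 0.81 without these libraries. Without ESC replicate 2 the log2 fold changes were 1.15 for Col9a2, which was still called, and 0.74 for Col9a3, which was not. Among the rarer FACIT genes, Col14a1 and Col20a1 were called lower at a mean below 1 TPM in both groups. The groups overlapped for Col14a1, which was called in 1 of the 6 fits that left out a library, and the number of FACIT genes called lower was 2 instead of 4 without ESC replicate 2. Col22a1, at 0.45 to 0.83 TPM, was not called (log2 fold change 0.53, standard error 0.24).

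The transmembrane collagens fell as well, but with a different order of the ESC libraries. Of 4 genes, all tested, 3 were called lower, and their summed level was 8.18, 4.02 and 5.76 TPM in ESCs and 0.94, 0.88 and 1.53 TPM in EpiLCs. Col23a1 (chromosome 11), which is shed from the surface of epithelial cells, was at 4.79, 2.96 and 3.56 TPM in ESCs and at 0.30, 0.29 and 0.70 TPM in EpiLCs, a log2 fold change of -3.18 (standard error 0.41). Col13a1, which is found at cell junctions including those of muscle and nerve, was at 2.73, 0.51 and 1.32 TPM in ESCs and at 0.27, 0.11 and 0.49 TPM in EpiLCs, a log2 fold change of -2.47 (standard error 0.73). In both genes the groups did not overlap and ESC replicate 2 was the lowest ESC library. Leaving that library out therefore moved the values the other way from those of the fibrillar genes, to -3.34 for Col23a1 and -2.87 for Col13a1. Col13a1 was called in 3 of the 6 fits that left out a library, and its value without ESC replicate 1, -1.77, was not called, nor was it called without EpiLC replicate 1 or 2. Col17a1, a component of the hemidesmosomes that fasten epithelia to their basement membrane, was at 0.32, 0.38 and 0.66 TPM in ESCs and at 0.13 to 0.18 TPM in EpiLCs (log2 fold change -1.57, standard error 0.38). Col25a1, a collagen of neurons, was at 0.16 to 0.35 TPM in all libraries and was not called.

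Of the 7 genes outside these classes, 6 were tested and 3 were called lower, with a median log2 fold change of -2.52. Type VIII collagen forms the short-chain lattice under endothelia. Its chain Col8a1 was at 10.8, 35.9 and 3.20 TPM in ESCs and at 0.68, 1.55 and 0.31 TPM in EpiLCs (log2 fold change -4.33, standard error 0.98, or -3.09 without ESC replicate 2). The other chain, Col8a2, was at 2.04, 2.78 and 2.32 TPM in ESCs and at 0.45, 0.57 and 0.46 TPM in EpiLCs, a log2 fold change of -2.32 (standard error 0.22). Both fell without overlap, yet Col8a1 spanned over 10-fold among the ESCs while the libraries of Col8a2 lay close together in each group. Col28a1 was also called lower, at 0.32, 0.83 and 0.17 TPM in ESCs and at most 0.07 TPM in EpiLCs (log2 fold change -3.55, standard error 0.91). Col7a1, the anchoring fibril chain of skin, was at 1.84, 5.68 and 0.87 TPM in ESCs and at 2.72, 3.20 and 1.70 TPM in EpiLCs, with a log2 fold change of -0.17 (standard error 0.63). Col15a1 and Col26a1, with log2 fold changes of -2.72 and -1.84, overlapped between the groups and were not called, and Col10a1, the collagen of hypertrophic cartilage, was at most 0.65 TPM.

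One order of the ESC libraries recurred through the family. Replicate 2 was highest and replicate 3 lowest in 23 of the 38 members tested (60.5%) and in 26.0% of all genes tested. With at least a 4-fold gap between replicates 2 and 3, the order held in 19 members (50.0%) and in 3.06% of all genes tested. By class, the median ratio of ESC replicate 2 to ESC replicate 3 was 6.75 for fibrillar, 7.47 for beaded filament, 3.75 for basement membrane, 2.67 for FACIT, 0.674 for transmembrane and 5.71 for the remaining collagens, against 1.00 over all genes tested. None of the 4 transmembrane genes had this order (0 of 4). The EpiLC libraries showed the order 2, 1, 3 in 17 members (44.7%) and in 28.7% of all genes tested, and both groups showed it in 14 members (36.8%) and in 8.56% of all genes. The order and the 4-fold gap were set after values of the members had been seen. These shares describe the libraries and were not tested, and the summed fibroblast markers given above were in the same order in ESCs. In EpiLC replicates 1, 2 and 3 those markers summed to 270, 214 and 231 TPM, to which the contractile genes Acta2 (47.8, 16.8 and 48.9 TPM) and Tagln (102, 63.1 and 73.1 TPM) gave a large part.

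Because ESC replicate 2 stood apart, the family was also described without it. The number called lower was then 17 of 38 instead of 18, and the median log2 fold change of the members was -0.95 instead of -1.86. The median was -0.42 for fibrillar, -0.12 for basement membrane, -1.58 for beaded filament, -0.92 for FACIT, -2.28 for transmembrane and -2.21 for the remaining collagens. With and without that library, the basement membrane class had the median nearest to 0. The count also moved with other libraries, to 5, 13 and 10 genes called lower without EpiLC replicates 1, 2 and 3. It was 17 without ESC replicate 1 and 24 without ESC replicate 3. The share of all genes called lower was 19.4%, 24.5% and 23.2% without ESC replicates 1, 2 and 3. Without EpiLC replicates 1, 2 and 3 it was 14.2%, 16.3% and 17.2%. The type I and type VI chains described by library, Col4a5, Col5a2 and Col16a1 were not called without EpiLC replicate 1, nor without EpiLC replicate 3, although their log2 fold changes moved little in these fits. For Col1a1 they were -4.63 and -4.35 against -4.74, for Col6a3 -3.31 and -3.06 against -3.49, and for Col4a5 -2.18 and -2.23 against -2.24. Without EpiLC replicate 2 the type I and type VI chains were still called, with more negative values for Col1a1 (-5.41), Col1a2 (-5.80), Col6a1 (-3.93) and Col6a3 (-4.43). Col5a1, Col8a2, Col12a1, Col20a1 and Col23a1 were the 5 of 18 called lower whichever single library was left out. Of these, Col20a1 had 17, 16 and 10 counts in ESCs and 1, 5 and 2 in EpiLCs. It thus passed the filter only through the group where it was high, and nothing is read from its repeated call.

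**Figure D4:**
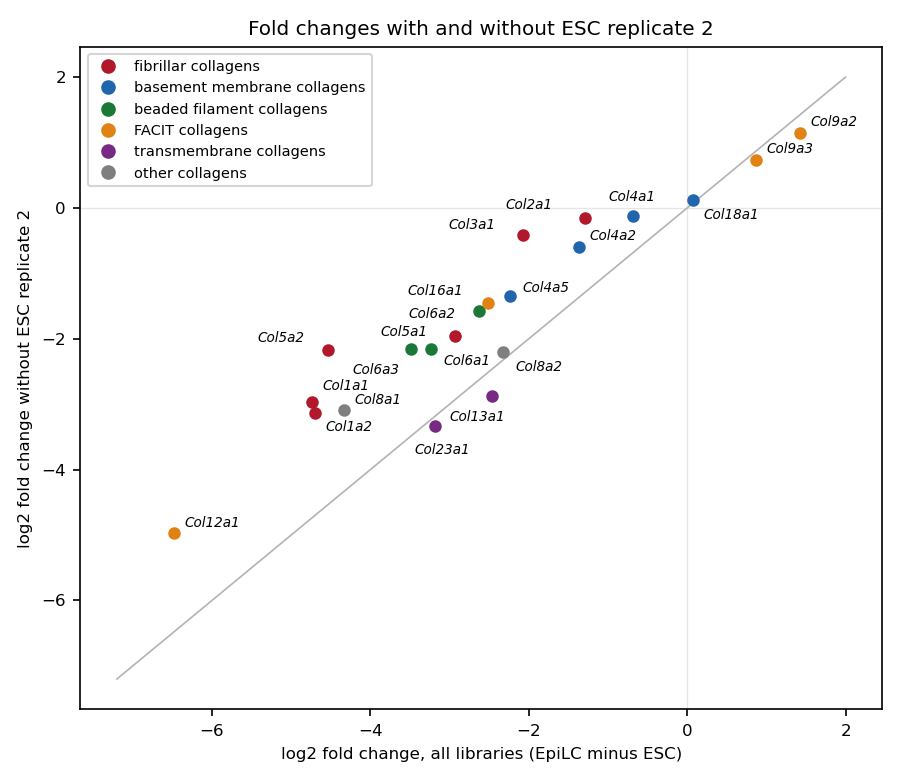
Log2 fold change (EpiLC minus ESC) of the 21 collagen genes described library by library, with all libraries (horizontal axis) and without ESC replicate 2 (vertical axis), coloured by class; the grey line marks equal values. Col1a1 moved from -4.74 to -2.97 and Col3a1 from -2.07 to -0.42, above the line, while Col13a1 and Col23a1 lie below it.

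Enzymes and partners of collagens were then counted from lists of genes that act on or with them. Of 75 partner genes in the table, 63 were tested, and 34 were lower and 5 higher in EpiLCs, with a median log2 fold change of -1.09, or -0.63 without ESC replicate 2. Over all genes tested, 22.8% were called lower and 22.6% higher. The number called lower was 31 without ESC replicate 2, 18 without EpiLC replicate 1 and 21 without EpiLC replicate 3, in fits that called 24.5%, 14.2% and 17.2% of all genes lower. The number called higher was 3 without ESC replicate 1 and 1 without EpiLC replicate 1 or EpiLC replicate 2, in fits that called 18.0%, 14.5% and 15.8% of all genes higher. Adjusted p-values below are from edgeR's quasi-likelihood test with Benjamini-Hochberg adjustment over all genes tested.

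Among 21 tested genes of modification and folding, which hydroxylate, glycosylate and fold the chains in the endoplasmic reticulum, 9 were lower and 1 was higher, with a median of -0.56, or -0.27 without ESC replicate 2. P4ha1, a catalytic subunit of prolyl 4-hydroxylase, which stabilises the triple helix, was at 35.8, 40.4 and 31.3 TPM in ESCs and at 14.9, 16.6 and 10.9 TPM in EpiLCs (log2 fold change -1.39, adjusted p = 0.000876 by edgeR). Plod1, a lysyl hydroxylase, fell by 1.30 on the log2 scale (adjusted p = 0.000287 by edgeR), from between 19.9 and 23.6 TPM to between 8.10 and 9.76 TPM. P3h4, a partner of lysyl hydroxylase, fell by 1.63 (adjusted p = 0.00921 by edgeR). In P4ha1 and Plod1 the ESC libraries lay close together, unlike those of the fibrillar chains. Serpinh1, the collagen chaperone HSP47, was at 142, 266 and 86.3 TPM in ESCs and at 76.3, 66.9 and 88.5 TPM in EpiLCs, and was called lower although the groups overlapped (log2 fold change -1.13, adjusted p = 0.0431 by edgeR). Mia3, which helps procollagen leave the endoplasmic reticulum, was the one that rose, by 0.23 on the log2 scale (adjusted p = 0.0447 by edgeR).

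Of 15 tested genes of processing and crosslinking outside the cell, 8 were lower and 0 were higher, with a median of -1.71, or -0.93 without ESC replicate 2. Lox, the lysyl oxidase that crosslinks fibrils, was at 80.5, 522 and 28.2 TPM in ESCs and at 1.21, 7.67 and 0.49 TPM in EpiLCs (log2 fold change -6.11, adjusted p = 0.0144 by edgeR). Bgn, the fibril-binding proteoglycan biglycan, was at 187, 658 and 68.7 TPM in ESCs and at 7.34, 27.7 and 3.67 TPM in EpiLCs (log2 fold change -4.61, adjusted p = 0.0126 by edgeR). Both followed the order of libraries seen in the type I chains, in ESCs and in EpiLCs. Pcolce and Pcolce2 enhance the removal of the procollagen C-terminal propeptide. Pcolce was at 72.4, 142 and 82.9 TPM in ESCs and at 10.8, 13.9 and 11.5 TPM in EpiLCs (log2 fold change -3.09, adjusted p = 0.000309 by edgeR), and Pcolce2 fell by 1.23 on the log2 scale (adjusted p = 0.00178 by edgeR).

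The degradation list, of which 7 of 12 genes were tested, had 5 lower and 0 higher, with a median of -2.50, or -1.44 without ESC replicate 2. The named Timp genes encode inhibitors of matrix metalloproteinases, not enzymes. Timp3 was at 86.1, 357 and 22.6 TPM in ESCs and at 17.1, 15.4 and 12.6 TPM in EpiLCs (log2 fold change -3.42, adjusted p = 0.0206 by edgeR), and Timp1 and Timp2 fell by 2.50 and 2.53 on the log2 scale (adjusted p = 0.0168 and 0.0340 by edgeR). For Timp2 the groups overlapped, at 82.8, 245 and 33.3 TPM in ESCs and 17.1, 37.2 and 10.35 TPM in EpiLCs. Mmp14, a membrane-bound collagenase, fell by 1.19 (adjusted p = 0.0319 by edgeR). All 7 tested genes of this list were highest in ESC replicate 2.

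Collagen receptors went both ways, with 3 lower and 2 higher of 7 tested and a median of -0.45, or -0.24 without ESC replicate 2. Ddr1, a receptor tyrosine kinase that binds collagen, was at 25.2, 36.0 and 23.8 TPM in ESCs and rose to 70.8, 77.2 and 53.4 TPM in EpiLCs (log2 fold change 1.20, adjusted p = 0.00289 by edgeR). Itga11, an integrin subunit for fibrillar collagen found on mesenchymal cells, was at 3.49, 26.4 and 1.87 TPM in ESCs and at 0.13, 0.27 and 0.04 TPM in EpiLCs (log2 fold change -6.16, adjusted p = 0.00782 by edgeR). Both separated the groups fully, in opposite directions.

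Of the non-collagen partners of the basement membrane, all 13 were tested, 9 were lower and 2 higher, with a median of -0.92, or -0.78 without ESC replicate 2. Lama1, the laminin chain of the earliest embryonic basement membranes, was at 13.4, 21.6 and 20.9 TPM in ESCs and at 4.47, 4.24 and 3.53 TPM in EpiLCs (log2 fold change -2.24, adjusted p = 0.000324 by edgeR). Lamc1, the gamma chain of most laminins, was at 124, 147 and 166 TPM in ESCs and at 50.7, 56.8 and 43.7 TPM in EpiLCs (log2 fold change -1.58, adjusted p = 0.000262 by edgeR). For these laminin chains ESC replicate 2 did not stand apart from the other ESC libraries. Hspg2, which encodes perlecan, fell by 2.21 and Nid1, which bridges laminin and type IV collagen, by 1.79 on the log2 scale (adjusted p = 0.000813 and 0.00418 by edgeR). Pxdn, the peroxidase that forms sulfilimine crosslinks in type IV collagen, was at 28.3, 37.6 and 17.4 TPM in ESCs and at 58.1, 50.8 and 49.3 TPM in EpiLCs (log2 fold change 0.88, adjusted p = 0.0259 by edgeR), above the ESCs in every library.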

How the data were processed

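RNA-seq libraries of wild-type ESCs (0 h) and EpiLCs (48 h) were analysed, with 3 biological replicates of each. The labels and the study's results give 48 h for EpiLCs, and its culture methods a longer time. Polyadenylated RNA was made into stranded libraries and sequenced as single-end reads of 76 nt. The authors trimmed reads with cutadapt 1.16, mapped them with STAR 2.5.2a to mm10 and counted them with RSEM 1.3.0, and they deposited expected counts, which are not normalized and divide reads shared by similar genes, and TPM, scaled for length and library. Of the expected counts, 4.27% to 4.65% per library were not whole.

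Expected counts were rounded, normalized by TMM (factors 0.979 to 1.02) and tested with edgeR 4.0.16 (R 4.3.3, filterByExpr, quasi-likelihood test, Benjamini-Hochberg, threshold 0.05) on all genes. Levels are TPM. The members, classes and partner lists were chosen with earlier results of these data known. Members with a mean of at least 5 TPM in a group, or 1 TPM if called, were described by library. For partner lists, up to 4 called genes per direction with at least 10 TPM were named. The fit was repeated with DESeq2 1.42.0, with upper-quartile normalization, without a filter or with at least 10 counts in every library, with limma 3.58.1 on log2(TPM + 1) and log2(TPM + 0.1), with a replicate block and without each library in turn. Counting genes without overlap between groups, and by the order of the libraries within a group, was added after the data were seen. The scripts were tested on simulated data. Promoter windows and positions came from RefSeq (GRCm38.p6). A planned description of protein repeats was not done, as no protein table was used here.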

Additional observations from a re-analysis of the deposited data

How the results depend on the processing

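The number of collagen genes called lower, 18 of 38 with edgeR (22.8% of all genes), was 21 of 44 with DESeq2 (19.6%), 18 of 38 with upper-quartile normalization (21.2%), 20 of 44 without a filter (17.4%), 14 of 31 with at least 10 counts in every library (22.1%), 16 of 38 with limma on log2(TPM + 0.1) (20.1%) and 11 of 38 with limma on log2(TPM + 1) (19.7%), which compresses low values. It ranged from 5 (14.2%, without EpiLC replicate 1) to 24 (23.2%, without ESC replicate 3) when 1 library was left out. The number called higher, 2, was 4 when genes without overlap between the groups were counted, a rule added after the data were seen that 33.8% of all genes met, and ranged from 0 to 2 when 1 library was left out, in fits that called between 14.5% and 24.3% of all genes higher. Partner genes called lower, 34, ranged from 18 (14.2% of all genes, without EpiLC replicate 1) to 45 (23.2%, without ESC replicate 3) and those called higher, 5, from 1 (14.5%, without EpiLC replicate 1, and 15.8%, without EpiLC replicate 2) to 6 (24.3%, without ESC replicate 2) when 1 library was left out. Col18a1, not called, had a log2 fold change of -0.04 without ESC replicate 1 and of up to 0.13 without another library. Apart from the construction of each alternative, the cause of these shifts was not tested.

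Deviations from the group means correlated across genes with r of 0.0067, 0.186 and 0.171 between libraries with replicate numbers 1, 2 and 3, so the numbers were not treated as pairs. ESC replicate 1 correlated best with EpiLC replicate 3, and the other two with their own number. With the replicate number as a block, 20 collagen genes were called lower and 1 higher, and 35 partner genes were called lower and 5 higher, against 21.5% and 20.6% of all genes. With 3 libraries a group, an exact permutation test of a single value cannot give a p below 0.10. Genes near the limit of 3 counts, such as Col20a1 and Col28a1, rest on few reads.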

Other observations

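Other secreted or membrane proteins also carry a collagen-like triple helix without being named collagens, among them adiponectin, the C1q family, collectins, ficolins and emilins. A list of 26 such genes was drawn up after the data had been seen. Of these, 11 were tested, 4 were lower in EpiLCs and 0 were higher (edgeR, against 22.8% and 22.6% of all genes tested), with a median log2 fold change of -0.97, or -0.61 without ESC replicate 2, when 3 were called lower. Emilin1, a glycoprotein of elastic fibres, was at 7.07, 24.5 and 3.96 TPM in ESC replicates 1 to 3 and at 1.72, 2.30 and 1.74 TPM in EpiLC replicates 1 to 3 (log2 fold change -2.66, adjusted p = 0.0156 by edgeR). Colec12, a scavenger receptor of the collectin family, was at 24.0, 22.9 and 10.2 TPM in ESCs and at 9.87, 8.77 and 11.4 TPM in EpiLCs (log2 fold change -0.97, adjusted p = 0.0402 by edgeR), and the groups overlapped. Both genes were named after their values were seen. The summed level of the 26 genes was 80.3, 227 and 41.4 TPM in ESCs and between 37.1 and 42.7 TPM in EpiLCs, so that ESC replicate 3 lay inside the range of the EpiLC libraries.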
